A study of Homo sapiens with 36 samples.

Results

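The 10 genes described here are the BCL2 family members BCL2, BCL2A1, BCL2L1, MCL1, BCL2L11, BID, BIK, BAD, BAX and BAK1. They were chosen by their symbols in the deposited count table, and all 10 were among its 2549 genes. The table came from targeted RNA-Seq of 36 established human lymphoma cell lines, in which RNA in lysed cells is counted on a fixed panel of genes. There was a single library for each line, so no value carries an error between replicates of a line. The labels state no treatment and give only the name of each line.

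The lines were placed in lymphoma types by their published origin, which is background knowledge and not part of the labels. The germinal-centre B-cell-like (GCB) type of diffuse large B-cell lymphoma had 14 lines: DB, DOHH2, KARPAS422, OCILY1, OCILY18, OCILY19, OCILY7, OCILY8, SUDHL10, SUDHL16, SUDHL4, SUDHL6, TOLEDO and WSU_DLCL2. The activated B-cell-like (ABC) type had 5 lines: HBL1, RIVA, SUDHL2, TMD8 and U2932. Mantle cell lymphoma had 9 lines: GRANTA519, JEKO1, JVM2, MAVER1, MINO, REC1, SP49, SP53 and UPN1. JVM2 was placed with them by common usage, and its type is less certain than that of the others. A mixed group of marginal zone and hairy cell lines had 5: KARPAS1718, SSK41, VL51, HAIR_M and HC_1. FARAGE, MEC1 and RCK8 were given no type and entered no comparison between types. Each line is a culture derived from 1 patient, so a type is represented by a few tumours adapted to culture. The p-values for types judge a difference against the spread between these lines.

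The BCL2 family decides whether mitochondria release the proteins that start apoptosis. Survival members such as BCL2, BCL2L1 (BCL-XL), MCL1 and BCL2A1 (BFL-1) hold the effectors BAX and BAK1 in check, and BH3-only members such as BCL2L11 (BIM), BID, BIK and BAD carry the death signal by binding survival members or by activating effectors. BCL2 is known in B-cell lymphoma for its activation by chromosomal translocation and as the target of the drug venetoclax, and MCL1 and BCL2A1 are known as alternative survival members in B cells. RNA levels do not give the amount or the modification of these proteins.

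Library totals ran from 6422917 to 13451527 counts, with a median of 10476681. Levels are given in CPM, the count of a target relative to the scaled total of its library, with TMM factors, which correct each library for its composition and ran from 0.602 in OCILY8 to 1.87 in MEC1. Of the 12 B-cell markers listed for a check of the lines, 8 were measured, and 7 or 8 of these reached 10 CPM in every line. The summed level of the germinal centre list had a median of 4256 CPM in GCB lines against 628, 773 and 994 in ABC, mantle cell and marginal zone or hairy cell lines, and the ranges overlapped. CCND1, the only measured mantle cell marker, ran from 7.90 to 24021 CPM in mantle cell lines, with a median of 91.2. Its highest level was 53.6 CPM in GCB, 91.1 in ABC and 270 in marginal zone and hairy cell lines. In the lines without a type the highest was 268 CPM. CCND1 thus did not set most mantle cell lines apart from the lines of other types. Summed over measured markers, T and NK cell genes reached 36.6 to 1648 CPM, myeloid genes 121 to 971 and stromal or endothelial genes 34.2 to 1168, against 5292 to 84626 for B-cell genes. In a library of bulk cells, fewer cells of a kind and less RNA per cell cannot be told apart.

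The family fell into members that varied widely between lines and members that varied little. The SD of log2 CPM across the 36 lines was 2.53 for BIK, 2.38 for BCL2L11, 2.29 for BCL2A1 and 2.02 for BCL2, larger than that of 97.6%, 96.0%, 95.1% and 91.7% of the 2406 genes that reached 10 CPM in 4 lines or more. MCL1 (1.09) and BCL2L1 (1.03) lay near the middle of the panel, where the median SD was 1.20. BAX (0.86), BID (0.73), BAK1 (0.69) and BAD (0.60) were steadier, and BAD had a larger SD than only 5.40% of the genes. The median SD of the 10 members was 1.06.

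**Figure D1:**
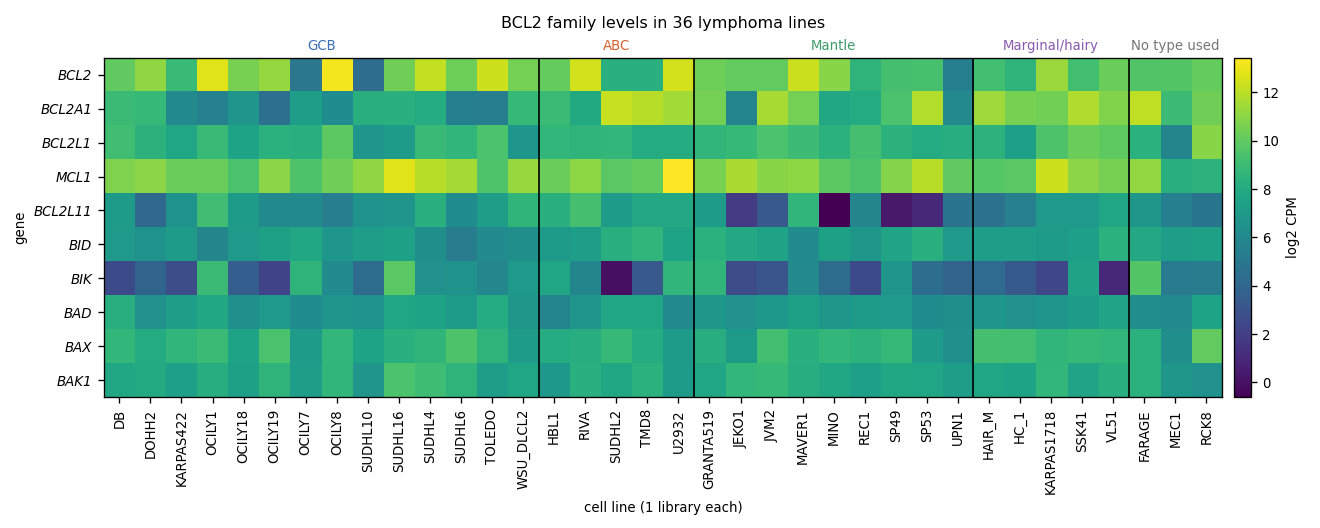
Level of each of the 10 members (rows) in each of the 36 lines (columns, grouped by type) as log2 CPM, with 1 library per line. The dark cells of BCL2L11 in 5 mantle cell lines and of BIK in SUDHL2 and VL51 stand against even rows for BAD and BAK1.

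BCL2, the founding survival member (chromosome 18, 63123346-63320128, minus strand in GENCODE 29 on GRCh38), was present in every line above the highest control target. Its level ran from 21.1 CPM in SUDHL10 to 9215 CPM in OCILY8, with a median of 1113 CPM. In GCB lines the lowest, median and highest levels were 21.1 (SUDHL10), 1478 and 9215 (OCILY8) CPM. The GCB lines thus held both the lowest and the highest BCL2 level of the 36 lines. OCILY1, TOLEDO and SUDHL4 followed OCILY8 among the GCB lines at 6985, 5316 and 4605 CPM.

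In ABC lines BCL2 stood at 316 CPM in TMD8, 322 in SUDHL2, 1122 in HBL1, 5694 in RIVA and 5712 in U2932, 2 lines high, 2 low and 1 between. The mantle cell values were 43.2 (UPN1), 1084 and 5016 (MAVER1) CPM for the lowest, median and highest line. In the marginal zone and hairy cell group the levels were 371 CPM in HC_1, 575 in SSK41, 582 in HAIR_M, 1247 in VL51 and 2519 in KARPAS1718, and all 5 fell inside the range of the GCB lines. FARAGE, MEC1 and RCK8, with no type, had 775, 823 and 1105 CPM.

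3 lines had under 100 CPM of BCL2: SUDHL10, OCILY7 with 30.5 CPM and UPN1 with 43.2 CPM. The next line up, TMD8, had 316 CPM, and the gap of 2.87 log2 units between UPN1 and TMD8 was the widest for BCL2, at 32.7% of its range. In all 3, MCL1 was the survival member with the most CPM, at 2172 in SUDHL10, 731 in OCILY7 and 1011 in UPN1. The summed level of the 4 survival members was 1218 CPM in OCILY7 and 1404 CPM in UPN1, the lowest of the 36 lines, while SUDHL10 had 2600.4 CPM.

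BCL2A1, an NF-kB-responsive survival member (chromosome 15, 79960889-79971446, minus strand), was lowest on average in GCB lines. The 14 GCB lines had a lowest, median and highest level of 23.1 (OCILY19), 129 and 507 (DB) CPM. In ABC lines it stood at 244 CPM in RIVA, 496 in HBL1, 2839.9 in U2932, 3929 in TMD8 and 4949 in SUDHL2, so RIVA and HBL1 lay within the GCB range and the other 3 lay above it. Mantle cell lines ran widely, with 53.6 (JEKO1), 715 and 3607 (SP53) CPM as lowest, median and highest. The marginal zone and hairy cell lines were all high, at 1388 CPM in KARPAS1718, 1496 in HC_1, 1731 in VL51, 2659 in HAIR_M and 3419 in SSK41.

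Of the 2363 genes tested in the 33 lines with a type, 140 (5.92%) differed among the 4 types by the edgeR quasi-likelihood test at an adjusted p of 0.05, and 1 of the 10 members did. That member was BCL2A1, with an F of 10.7 and a Benjamini-Hochberg adjusted p of 0.00267 in edgeR. The median F was 1.17 over the members and 1.27 over all genes. BCL2A1 was higher than in GCB lines by 3.51 ± 0.68 log2 units (SE) in ABC lines (edgeR adjusted p = 0.00323), where 1.35% of genes were called higher. The difference was 2.67 ± 0.61 log2 units (SE) in mantle cell lines (edgeR adjusted p = 0.00823; 2.62% of genes called higher). It was 3.44 ± 0.68 log2 units (SE) in marginal zone and hairy cell lines (edgeR adjusted p = 0.00271; 3.05% of genes called higher). These 3 comparisons share the GCB lines. In either direction, 1.52%, 4.1% and 3.13% of genes were called in them, and 0.169%, 1.48% and 0.0846% were called lower.

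The marginal zone and hairy cell lines did not overlap the GCB lines in BCL2A1: the lowest, KARPAS1718, stood at 1388 CPM and the highest GCB line, DB, at 507 CPM. BCL2A1 was the only one of the 2363 genes (0.0423%) whose ranges did not overlap between these types. Over the 60 combinations of 10 members and 6 pairs of types, it was the only combination without overlap. The shares of all genes without overlap were 0.0846% for ABC and 0.0423% for mantle cell against GCB lines, 0.508% for mantle cell and 0.931% for marginal zone and hairy cell against ABC lines, and 0.0423% for marginal zone and hairy cell against mantle cell lines. The ABC (0.84 ± 0.78, SE; edgeR adjusted p = 0.568) and the marginal zone and hairy cell lines (0.77 ± 0.78, SE; edgeR adjusted p = 0.998) had fitted log2 differences from mantle cell lines that did not pass. ABC minus marginal zone and hairy cell lines was 0.07 ± 0.90 log2 units (SE; edgeR adjusted p = 0.990). In these 3 pairs, where 0.339% (0.254% higher and 0.0846% lower), 0.466% (all higher) and 0% of genes were called, edgeR called 0 of the 10 members, DESeq2 0 and limma-voom 0, and 1, 0 and 0 members had an unadjusted edgeR p under 0.05.

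The calls for BCL2A1 against GCB lines held without any 1 line, with log2 differences of 3.26 to 4.01 for ABC, 2.27 to 2.89 for mantle cell and 3.22 to 3.66 for marginal zone and hairy cell lines. In limma-voom the mantle cell difference was 2.07 with an adjusted p of 0.103 and so was not called. The TMM factors also differed between types, with medians of 0.890 in GCB, 1.24 in ABC, 0.993 in mantle cell and 1.01 in marginal zone and hairy cell lines, and all 3 calls for BCL2A1 held with the log2 factor as a covariate. The summed level of 7 measured activated B-cell markers had its type medians in the same order as the type medians of BCL2A1. By mean log2 CPM, BCL2A1 was instead highest in marginal zone and hairy cell lines, at 10.97 against 10.51 in ABC lines. The lowest, median and highest marker sums were 425, 1747 and 4115 CPM in GCB and 2274, 6827 and 8927 in ABC lines. They were 1435, 3657 and 6649 in mantle cell and 3033, 4519.6 and 7832 in marginal zone and hairy cell lines. The list holds BATF, an activated lymphocyte factor. Its part in the difference was not tested.

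**Figure D2:**
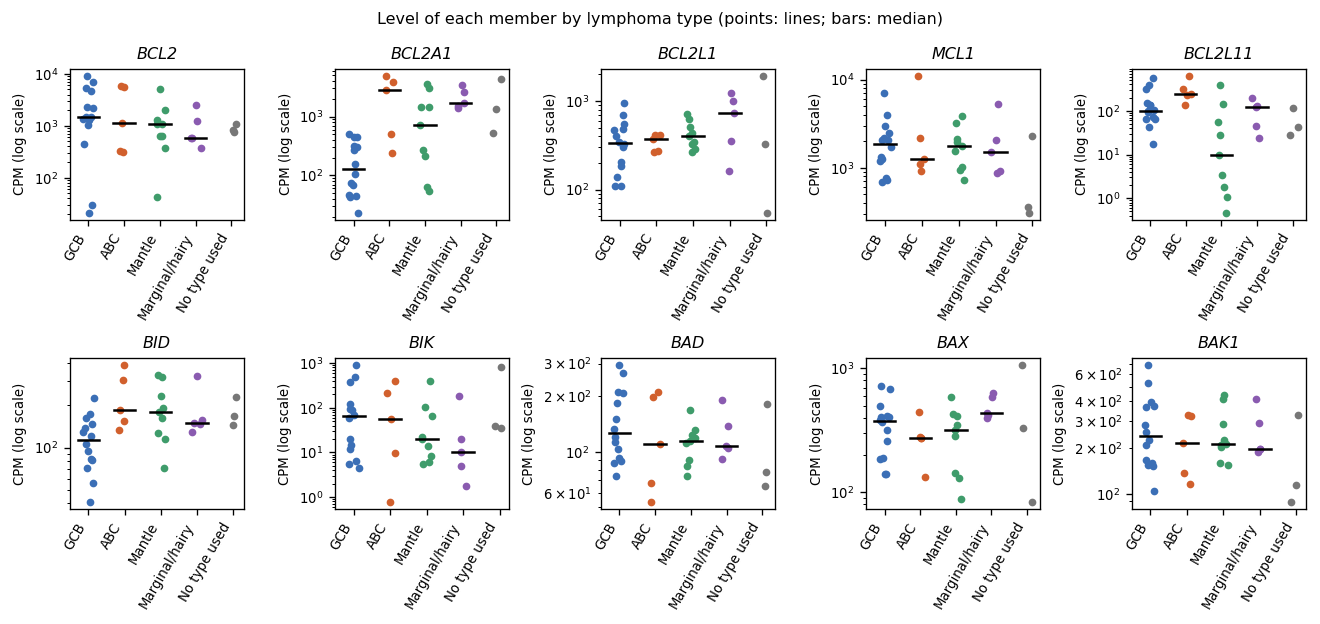
CPM of each member on a log axis by lymphoma type, with 1 point per line and a bar at the median of each type; the 3 lines with no type have no bar. In the BCL2A1 panel the 5 marginal zone and hairy cell lines, from 1388 to 3419 CPM, lie above all 14 GCB lines, whose highest is 507 CPM, and in the BCL2L11 panel 5 mantle cell lines lie below 10 CPM.

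MCL1, a short-lived survival protein (chromosome 1, 150574551-150579738, minus strand), was abundant in most lines and ran from 308 CPM in MEC1 to 11076 CPM in U2932, with a median of 1639. Its median was 1883 CPM in GCB, 1252 in ABC, 1786 in mantle cell and 1489 in marginal zone and hairy cell lines, and all ranges overlapped. MCL1 did not pass the joint test (edgeR adjusted p = 0.856). U2932 stood above every other line, with SUDHL16 (7013) and KARPAS1718 (5300.0) next.

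BCL2L1, whose main product is BCL-XL (chromosome 20, 31664452-31723989, minus strand), had its extremes in lines without a type, 54.6 CPM in MEC1 and 1936 CPM in RCK8, around a median of 361. GCB lines had 109 (WSU_DLCL2), 336 and 956 (OCILY8) CPM as lowest, median and highest, and mantle cell lines 266 (SP53), 399.9 and 710.3 (JVM2) CPM. The 5 ABC lines lay close together, at 263 CPM in TMD8, 271 in U2932, 368 in RIVA, 413 in SUDHL2 and 418 in HBL1. The marginal zone and hairy cell lines spread from low to high, at 162 CPM in HC_1, 353 in HAIR_M, 729 in KARPAS1718, 1005 in VL51 and 1243 in SSK41. BCL2L1 did not pass the joint test (edgeR adjusted p = 0.456), and its difference between marginal zone and hairy cell and GCB lines was 0.90 ± 0.44 log2 units (SE; edgeR adjusted p = 0.391).

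The dominant survival member of a line was taken as the one of BCL2, BCL2A1, BCL2L1 and MCL1 with the most CPM. By this rule MCL1 led in 16 lines, BCL2 in 11, BCL2A1 in 8 and BCL2L1 in 1. BCL2 led at 9215 CPM in OCILY8, 6985 in OCILY1, 5694 in RIVA, 5316 in TOLEDO, 5016 in MAVER1, 4605 in SUDHL4, 2330.2 in OCILY19, 2173 in DOHH2, 1992 in MINO, 1495 in OCILY18 and 823 in MEC1. BCL2A1 led at 4949 CPM in SUDHL2, 4423 in FARAGE, 3929 in TMD8, 3419 in SSK41, 3093 in JVM2, 2659 in HAIR_M, 1731 in VL51 and 1496 in HC_1. MCL1 led at 11076 CPM in U2932, 7013 in SUDHL16, 5300.0 in KARPAS1718, 3906 in SP53, 3220.0 in JEKO1, 3010.0 in SUDHL6, 2449 in WSU_DLCL2, 2172 in SUDHL10, 1786 in SP49, 1715 in DB, 1563 in GRANTA519, 1252 in HBL1, 1247 in KARPAS422, 1011 in UPN1, 731 in OCILY7 and 719 in REC1. BCL2L1 led in RCK8 alone, at 1936 CPM.

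The leading member differed in make-up between types. The 14 GCB lines divided into 7 led by BCL2 and 7 led by MCL1, with none led by BCL2A1. Of 5 ABC lines, 1 was led by BCL2, 2 by BCL2A1 and 2 by MCL1, and of 9 mantle cell lines 2 were led by BCL2, 1 (JVM2) by BCL2A1 and 6 by MCL1. In the marginal zone and hairy cell group, BCL2A1 led in 4 of 5 lines and MCL1 in KARPAS1718. The median share of BCL2A1 in the summed CPM of the 4 members was 3.54% in GCB, 15.1% in ABC, 16.0% in mantle cell and 46.9% in marginal zone and hairy cell lines. These counts are a description and were not tested.

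How far the leader stood ahead varied from line to line. MCL1 in SUDHL10 exceeded the next member, BCL2A1, by 7.28-fold (95% counting interval 7.06 to 7.51), and BCL2 exceeded MCL1 by 6.95-fold (95% counting interval 6.80 to 7.11) in TOLEDO and by 6.91-fold (95% counting interval 6.76 to 7.07) in OCILY8. In 9 lines the ratio was over 3. In 9 lines it was under 1.5, and in 3 it was under 1.1: DOHH2 (BCL2 over MCL1, 1.06), GRANTA519 (MCL1 over BCL2A1, 1.07) and SP53 (MCL1 over BCL2A1, 1.08). These intervals cover counting error only, because the lines have no replicates and reads are not individually tagged molecules.

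Counts of different targets share no common scale, so the order of genes within a line was also read per kilobase of the longest coding transcript in GENCODE 29 and relative to each gene's own median across lines. Whether counts on this panel grow with transcript length is not known, so the per-kilobase order may favour short transcripts. It is given as a description. Per kilobase, with lengths of 7461 bases for BCL2, 1033 for BCL2A1, 2610 for BCL2L1 and 3932 for MCL1, BCL2A1 led in 17 lines, MCL1 in 13, BCL2 in 6 and BCL2L1 in 0. On that scale MCL1 led in 9 and BCL2 in 4 of the 14 GCB lines, and BCL2A1 led in 6 of 9 mantle cell lines and in 4 of 5 marginal zone and hairy cell lines. The leader was the same on the CPM and per-kilobase scales in 24 of 36 lines, and on the CPM scale and relative to the gene's own median in 27. Relative to its own median, BCL2A1 stood farthest up in 12 lines, BCL2 in 10, MCL1 in 8 and BCL2L1 in 6, and MCL1 did so in 1 of 9 mantle cell lines. The leader was the same on all 3 scales in 22 lines, a description that does not test any of the scales. These were BCL2 in OCILY1, OCILY18, OCILY8, TOLEDO, RIVA and MINO, BCL2A1 in SUDHL2, TMD8, JVM2, HAIR_M, HC_1, SSK41, VL51 and FARAGE, and MCL1 in KARPAS422, SUDHL10, SUDHL16, SUDHL6, WSU_DLCL2, U2932, JEKO1 and KARPAS1718. The leader in RCK8 was BCL2A1 per kilobase.

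**Figure D3:**
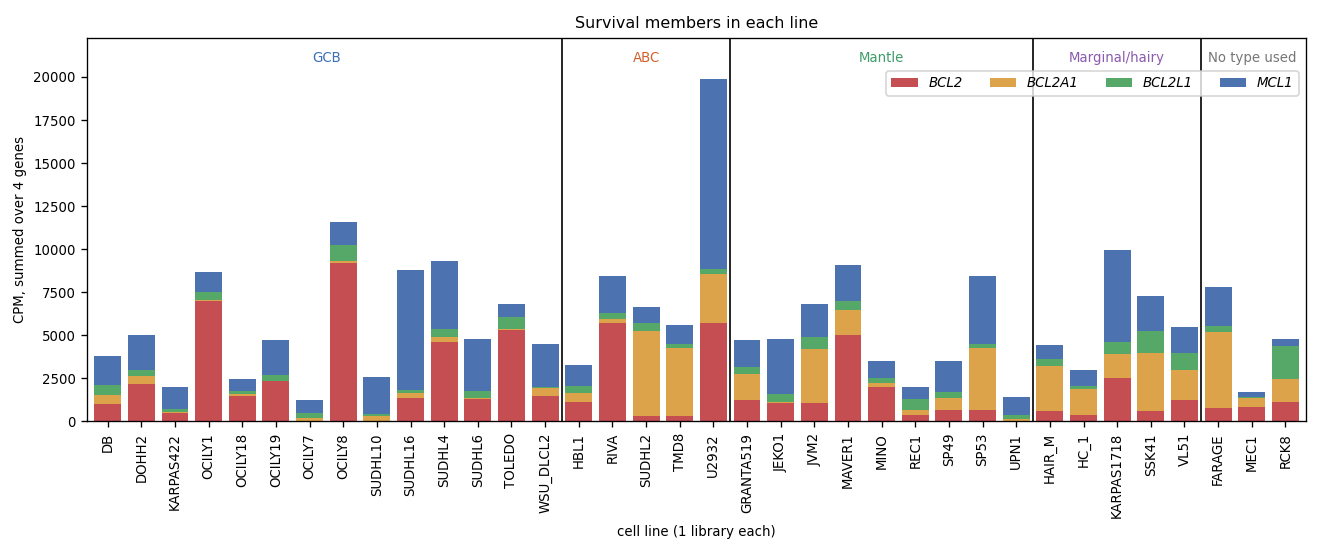
CPM of BCL2, BCL2A1, BCL2L1 and MCL1 stacked for each line, 1 library each, grouped by type, on a linear axis from 0. OCILY8, OCILY1 and TOLEDO are mostly BCL2, SUDHL2 and TMD8 mostly BCL2A1, and U2932 reaches the highest sum, 19899 CPM, with 11076 CPM of MCL1.

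BCL2L11 encodes BIM, a BH3-only activator of BAX and BAK1 (chromosome 2, 111119378-111168447, plus strand). Its lowest levels were all in mantle cell lines: 0.464 CPM in MINO, 1.08 in SP49, 1.85 in SP53, 3.40 in JEKO1 and 9.85 in JVM2. These were the only 5 of the 36 lines under 10 CPM, and JVM2, the highest of them, is the line whose type is less certain. The values in MINO and SP49 rested on 5 and 14 counts and did not exceed the highest control target of their libraries, so BCL2L11 was not detectable above background there. The 95% counting interval was 0.151 to 1.08 CPM in MINO and 0.592 to 1.82 CPM in SP49. The other 4 mantle cell lines were not low as a group, with 27.9 CPM in UPN1, 54.2 in REC1, 144 in GRANTA519 and 390.3 in MAVER1.

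GCB lines had 17.8 (DOHH2), 101 and 554 (OCILY1) CPM of BCL2L11 as lowest, median and highest. ABC lines all lay above that median, with 138 CPM in SUDHL2, 231 in U2932, 236 in TMD8, 321 in HBL1 and 635 in RIVA. Marginal zone and hairy cell lines had 24.2 CPM in HAIR_M, 45.7 in HC_1, 124 in KARPAS1718, 127 in SSK41 and 198 in VL51, all within the GCB range. The mean log2 CPM was 3.59 in mantle cell against 6.79 in GCB lines, while the mean CPM was 70.4 against 159.

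Whether BCL2L11 passed between mantle cell and GCB lines depended on the model. The edgeR fit, which compares mean counts, gave mantle cell minus GCB as -1.22 ± 0.77 log2 units (SE) with an adjusted p of 0.446, and a joint adjusted p of 0.446. limma-voom, which compares mean log2 values, gave -3.19 ± 0.83 log2 units (SE) with an adjusted p of 0.0250, and a joint adjusted p of 0.0195. Without MAVER1 the edgeR difference was -2.30. Over the fits that each left out 1 line its lowest adjusted p was 0.0960, so no such edgeR fit called it. The ABC minus mantle cell difference in edgeR was 2.14 ± 0.94 log2 units (SE; adjusted p = 0.343).

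BIK, a BH3-only protein of the endoplasmic reticulum (chromosome 22, 43110748-43129712, plus strand), was the most variable member. It ran from 0.776 CPM in SUDHL2, where 8 counts did not exceed the highest control target, to 916 CPM in SUDHL16, with a median of 28.4. In 10 lines BIK was under 10 CPM, and these lines came from every type: OCILY19, DB and KARPAS422 among GCB, SUDHL2 and TMD8 among ABC, REC1, JEKO1 and JVM2 among mantle cell, and VL51 and KARPAS1718 among marginal zone and hairy cell lines. FARAGE (820.4 CPM), OCILY1 (497), U2932 (403), GRANTA519 (393) and OCILY7 (371) followed SUDHL16. BIK did not pass the joint test (edgeR adjusted p = 0.695).

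**Figure D4:**
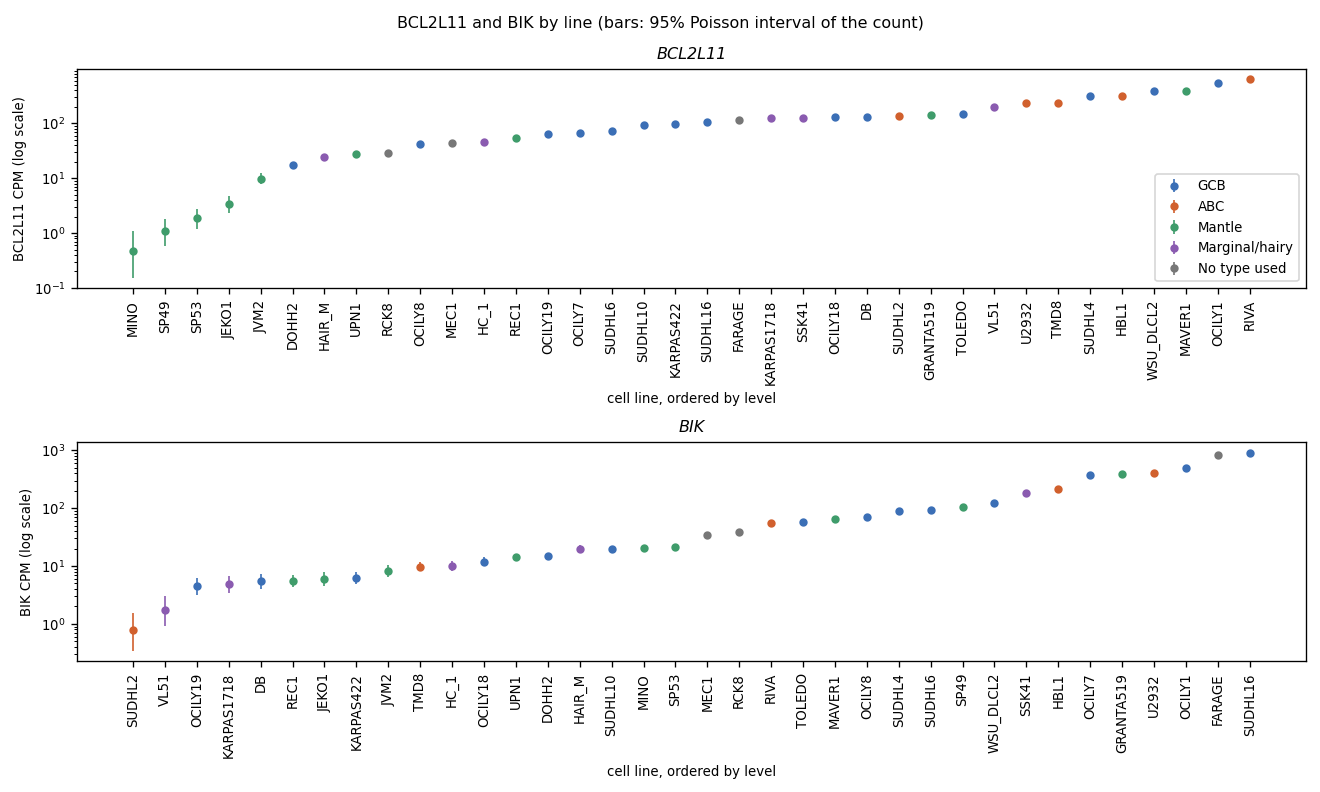
BCL2L11 (top) and BIK (bottom) in each line, ordered by level, as CPM on a log axis with bars for the 95% Poisson interval of the count and colours for the type. The 5 lowest lines of BCL2L11 are all mantle cell lines, while the 10 lines with under 10 CPM of BIK come from all 4 types.

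BID, the BH3-only protein that links death receptors to mitochondria (chromosome 22, 17734138-17774770, minus strand), ran from 40.9 CPM in SUDHL6 to 389 CPM in TMD8. GCB lines had 40.9 (SUDHL6), 114 and 226 (OCILY7) CPM and mantle cell lines 71.3 (MAVER1), 178 and 329.8 (GRANTA519) CPM as lowest, median and highest. ABC lines had 133 CPM in HBL1, 154 in RIVA, 185 in U2932, 304 in SUDHL2 and 389 in TMD8, and marginal zone and hairy cell lines 130.0 CPM in KARPAS1718, 147 in HAIR_M, 150.1 in HC_1, 158 in SSK41 and 322 in VL51, with VL51 apart from the other 4. The fitted difference from GCB lines was 0.93 ± 0.35 log2 units (SE) in ABC (edgeR adjusted p = 0.206) and 0.84 ± 0.29 in mantle cell lines (edgeR adjusted p = 0.102). Neither passed, nor did the joint test (edgeR adjusted p = 0.165).

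BAD, a BH3-only protein held inactive by phosphorylation (chromosome 11, 64269830-64284704, minus strand), was the steadiest member, from 53.4 CPM in HBL1 to 295 CPM in DB. Its median was 127 CPM in GCB, 110.1 in ABC, 115 in mantle cell and 107 in marginal zone and hairy cell lines, with overlapping ranges (joint edgeR adjusted p = 0.737).

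The effectors, whose oligomers open the outer mitochondrial membrane, were present in every line above control targets. BAX (chromosome 19, 48954815-48961798, plus strand) ran from 83.4 CPM in MEC1 to 1069 CPM in RCK8, with medians of 378 in GCB, 275 in ABC, 318 in mantle cell and 437 in marginal zone and hairy cell lines. The last group lay in a narrow band, at 400.5 CPM in KARPAS1718, 419 in VL51, 437 in SSK41, 584 in HC_1 and 635 in HAIR_M, inside the GCB range of 140.2 to 718. BAK1 (chromosome 6, 33572547-33580293, minus strand) ran from 89.0 CPM in RCK8, the line with the most BAX, to 691 CPM in SUDHL16. Its medians were 240.2, 215, 213 and 197 CPM in the same order of types. Neither effector passed the joint test (edgeR adjusted p = 0.641 for BAX and 0.815 for BAK1).

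Per kilobase of transcript, the median levels over the 36 lines ordered as BCL2A1 (458 CPM per kilobase), MCL1 (417), BAX (265), BCL2 (149), BCL2L1 (138), BAD (98.4), BAK1 (96.8), BID (59.6), BIK (29.8) and BCL2L11 (19.3). The ranges of neighbours in this order overlapped over the lines. How efficiently each target is counted is not known, so this order describes target counts and is not an order of RNA abundance. Several members overlap other genes in GENCODE 29: BCL2 with AC022726.1 and AC022726.2, BID with MIR3198-1, BCL2L11 with MIR4435-2HG, BAD with GPR137, BAK1 with GGNBP1, BCL2L1 with ABALON and AL117381.1, and MCL1 with ADAMTSL4-AS1. BAK1 also has the processed pseudogenes BAK1P1 and BAK1P2. Whether counting used strand is not stated, so counts of these members are less certain.

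Pairs of members were compared across the 36 lines on log2 CPM, with Pearson's r and Spearman's rho, permutation tests of 100000 resamples and Benjamini-Hochberg adjustment over the 45 pairs. 4 pairs passed on both measures, all positive. MCL1 and BAK1 gave r = 0.557 and rho = 0.541 (adjusted permutation p = 0.0067 and 0.011), with raw p of 0.00031 and 0.00072. BCL2A1 and BID gave r = 0.544 and rho = 0.547 (adjusted permutation p = 0.0067 and 0.011), with raw p of 0.00045 and 0.00069. Both pairs join a survival member with a member that promotes death. Among the 2405 other genes, 70 had a larger absolute rho to MCL1 than BAK1 had, and 579 had a larger one to BAK1 than MCL1 had. For BCL2A1 and BID, 59 genes had a larger absolute rho to BCL2A1 and 6 to BID.

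BAD and BAX gave r = 0.535 and rho = 0.573 (adjusted permutation p = 0.0098 and 0.011), with raw p of 0.00087 and 0.00031. BCL2L1 and BAX gave r = 0.579 and rho = 0.497 (adjusted permutation p = 0.0067 and 0.028), with raw p of 0.00019 and 0.0025. For BAD and BAX, 68 genes had a larger absolute rho to BAD and 8 to BAX. For BCL2L1 and BAX, 422 genes had a larger absolute rho to BCL2L1 and 45 to BAX. With the 2 lines most distant from the first gene's median removed, r was 0.699 for MCL1 and BAK1, 0.556 for BCL2A1 and BID and 0.569 for BAD and BAX. It was 0.397 for BCL2L1 and BAX without MEC1 and RCK8, and no longer passed. The pass of BCL2L1 and BAX was also lost without any 1 of MEC1, OCILY18, RCK8, SUDHL10 or WSU_DLCL2. MEC1 was also the library with the largest share of counts on control targets, 0.0265%.

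The passes depended on the scaling and on which lines were used. With library size alone in place of TMM, BCL2A1 and BID kept their pass, and r was 0.477 for BCL2L1 and BAX, 0.402 for MCL1 and BAK1 and 0.430 for BAD and BAX, which no longer passed. With the log2 TMM factor regressed out of both genes 0 of 45 pairs passed, and r was 0.525 for BCL2A1 and BID, 0.481 for BCL2L1 and BAX, 0.436 for BAD and BAX and 0.394 for MCL1 and BAK1. Over the 33 lines with a type 0 pairs passed. With the mean of each type subtracted 0 passed, and r was 0.49 for BAD and BAX, 0.454 for MCL1 and BAK1, 0.382 for BCL2L1 and BAX and 0.302 for BCL2A1 and BID. The log2 TMM factor itself was related to BAK1 (r = -0.721, rho = -0.696, adjusted permutation p = 0.0001 and 0.0002 over the 10 members) and to BCL2 (r = -0.566, rho = -0.615, adjusted permutation p = 0.0014 and 0.0005). Without MEC1 and OCILY8, the 2 lines with the most extreme factors, these r were -0.686 and -0.570. BCL2L1 (r = -0.451, adjusted permutation p = 0.018 and 0.011), MCL1 (r = -0.431, 0.018 and 0.043) and BAD (r = -0.417, 0.018 and 0.035) were also related to the factor. BAX passed on r alone (r = -0.421, 0.018 and 0.06). BCL2A1, BCL2L11, BID and BIK passed on neither measure. Without the same 2 lines, r was -0.267 for BCL2L1, -0.374 for MCL1, -0.407 for BAD and -0.314 for BAX. CPM values are divided by this factor, so a negative relation to it can come from the division itself. These permutation tests cannot separate that from a trait of the gene. The share of all genes related to the factor is not given here, so the relations are not read as particular to these members. Every pair of members also shares the factor as a divisor.

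**Figure D5:**
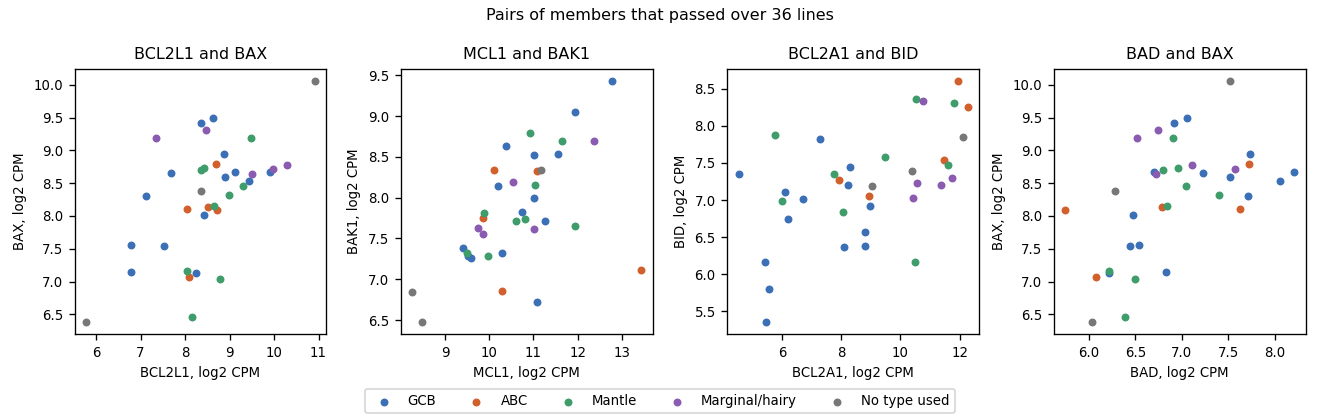
The 4 pairs of members that passed over 36 lines, as log2 CPM of one member against log2 CPM of the other, with 1 point per line coloured by type. In the BCL2L1 and BAX panel the 2 lines with no type at the lower left and upper right are MEC1 and RCK8, and r was 0.579 with them and 0.397 without.

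No pair of survival members passed. BCL2 and MCL1 gave r = 0.282 and rho = 0.326 (adjusted permutation p = 0.39 and 0.23), and BCL2 and BCL2A1 gave r = -0.109 and rho = -0.316 (adjusted permutation p = 0.84 and 0.23). A relation between survival members was thus not detected with 36 lines, which does not show that there is none. Among the 41 pairs that did not pass, some weak r changed sign between scalings and subsets, and their signs are not read here.

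The rest of the apoptosis pathway was read from lists of genes that act beside the members. Of 12 tested other BCL2 family genes, 15 genes of caspase activation, 8 inhibitors of caspases or death receptors and 12 death receptor genes, edgeR called 0, 0, 0 and 0 in the joint test. At an unadjusted edgeR p under 0.05 these counts were 2, 1, 1 and 1, and the share of all genes at that p is not given here. DESeq2 called 0, 0, 0 and 0, of 273 genes in all, and limma-voom 0, 0, 0 and 1, of 56 genes in all. As edgeR called 5.92% of all genes, few calls are expected from lists this short. The counts thus do not show that the lists were alike between types. The median F of the lists was 1.56, 1.16, 1.90 and 1.37, against 1.27 over all genes.

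Transcription factors known to act on members were called by edgeR in the joint test in 4 of 16 cases, against 5.92% of all genes. This list was chosen with earlier results of these data known, so the count cannot show an excess over all genes. DESeq2 called 7 of them, of 273 genes in all, and limma-voom 1, of 56 genes in all. The 4 called by edgeR were BCL6 (joint edgeR adjusted p = 0.0141), NFKB2 (0.0275), FOXO3 (0.0296) and STAT3 (0.0425). BCL6 is a transcriptional repressor that acts in germinal centre B cells and is also on the germinal centre marker list. NFKB2 is a subunit of NF-kB, FOXO3 an activator of BCL2L11 and STAT3 an activator of survival genes. In mantle cell lines BCL6 differed from GCB lines by -3.15 ± 0.75 log2 units (SE; edgeR adjusted p = 0.0114), FOXO3 by -1.13 ± 0.32 (0.0354) and NFKB1, another NF-kB subunit, by 0.98 ± 0.29 (0.0453). BCL6 and FOXO3 were also lower than in GCB lines in the other types, where edgeR did not call them. For FOXO3 the differences were -0.998 ± 0.397 in ABC and -1.15 ± 0.40 in marginal zone and hairy cell lines. For BCL6 they were -2.06 ± 0.91 and -2.25 ± 0.92. FOXO3 in ABC minus mantle cell lines was 0.13 ± 0.40 (edgeR adjusted p = 0.880). The part of FOXO3 in BCL2L11 levels was not tested. NFKB2 was higher in marginal zone and hairy cell than in GCB lines by 2.30 ± 0.54 log2 units (SE; edgeR adjusted p = 0.00957), and STAT5A, a cytokine-activated factor, by 3.06 ± 0.87 (0.0432). STAT3 was higher in ABC than in GCB lines by 1.86 ± 0.45 log2 units (SE; edgeR adjusted p = 0.0203). NFKB1 and STAT5A did not pass the joint test and were chosen after their values were seen. The other NF-kB genes of the list, RELA, REL and RELB, were called in none of the 3 comparisons with GCB lines (edgeR), and RELA had fitted log2 differences of -0.30, -0.17 and -0.19 in ABC, mantle cell and marginal zone and hairy cell lines. In the same order these were 0.40, 0.84 and 0.87 for RELB and -0.34, -0.50 and 0.05 for REL. In ABC lines NFKB1 and NFKB2 differed from GCB lines by 0.20 and 0.22, which edgeR did not call.

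The genes of the panel whose levels over the 36 lines were most like those of a member are given as a description, with Spearman's rho against 2405 other genes that share the libraries and their scaling. BCL2A1 was most like BATF (rho 0.78), HMOX1 (rho 0.75) and LGALS3 (rho 0.73) and most opposed to STMN1 (rho -0.65), MRE11A (rho -0.63) and SMAD5 (rho -0.63). BATF, the nearest, is on the activated B-cell list, and its level ran from 5.98 CPM to 2129 CPM, highest in TMD8. BCL2 was most like PIK3C3 (rho 0.76), DDX17 (rho 0.67) and TXNL1 (rho 0.67) and most opposed to FRMD6 (rho -0.69), MAGEC1 (rho -0.68) and VSNL1 (rho -0.66). PIK3C3, a lipid kinase of autophagy, was highest in OCILY8, the line with the most BCL2.

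MCL1 was most like ARMC1 (rho 0.72), WHSC1L1 (rho 0.69) and RALA (rho 0.67) and most opposed to TFPI2 (rho -0.60), GHR (rho -0.60) and DKK3 (rho -0.59). BCL2L1 was most like TYK2 (rho 0.76), STK11 (rho 0.72) and TRAF7 (rho 0.71) and most opposed to OLR1 (rho -0.78), CX3CR1 (rho -0.76) and PLCE1 (rho -0.73). BCL2L11 had no close neighbour on the panel, being most like EIF4E (rho 0.54), ZNF552 (rho 0.54) and NLK (rho 0.53) and most opposed to VASH1 (rho -0.49), CXCR3 (rho -0.47) and BAMBI (rho -0.46). Of the genes most opposed to MCL1 and BCL2L1, TFPI2, DKK3, CX3CR1 and PLCE1 were highest in MEC1, the library with the largest TMM factor.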

How the data were processed

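Targeted RNA-Seq of lysates from 36 lymphoma lines gave 1 library per line. The deposited table holds raw counts per target that the authors left unscaled, and a second deposited table holds the authors' log2 values, which equal log2 of 1 plus the count over a factor of its library, to within 0.00529. The submitters' processing notes name hg38 as the build. Which aligner and counter were used, and whether strand was, is not given in the sources used here.

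Of 2559 targets, 10 control targets were left out (at most 0.0265% of a library). Counts were scaled with TMM factors in edgeR 4.0.16 (R 4.3.3), and CPM use the scaled library totals. Genes were kept if 4 or more lines had 10 CPM or more, 2406 over all lines and 2363 over the 33 lines with a type. Types were compared in 1 edgeR quasi-likelihood model of 4 groups, jointly and in 6 pairs, with Benjamini-Hochberg adjustment over all genes tested in each comparison and a threshold of 0.05. For pairs of members, log2 CPM had a prior count of 2. Two-sided permutation tests (Python 3.11.15, numpy 2.4.6, scipy 1.17.1) drew 100000 resamples, so the smallest p they can give is 1e-05. Intervals of counts are 95% Poisson intervals. Positions and transcript lengths are from GENCODE 29 on GRCh38. The edgeR comparison of ABC with GCB lines and the permutation test of pairs were tried on simulated data. The simulated pairs shared no scaling factor.

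Alternatives were DESeq2 1.42.0 size factors and tests, upper-quartile factors, limma 3.58.1 voom, other filters, the TMM factor as a covariate, and each line left out. Named were all members, the listed pathway genes that passed the joint test (at most 8 of each list), NFKB1 and STAT5A, chosen after their values were seen, the other NF-kB genes of their list, and for 5 members the 3 genes most alike and the 3 most opposed by rho. The members and lists were chosen with earlier results of these data known.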

Additional observations from a re-analysis of the deposited data

Results flagged for a closer look

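BID in VL51 stood at 322 CPM, apart from the other 4 marginal zone and hairy cell lines, of which the nearest had 158 CPM. The gap was 0.788 of the whole range of the 5 lines on the log2 scale, more than Dixon's 95% limit for a group of 5. It was the only such value among the 30 combinations of member and type examined, and chance alone gives about 1 in 20. TMD8 and GRANTA519, outside this group, had higher BID levels, at 389 and 329.8 CPM.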

How the results depend on the processing

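The 3 higher levels of BCL2A1 against GCB lines kept their direction under every scaling, filter and tool run, and were called in each except limma-voom for mantle cell lines. The log2 differences ran from 3.40 to 3.89 for ABC, 2.07 to 2.73 for mantle cell and 3.32 to 3.89 for marginal zone and hairy cell lines. limma-voom called 2 members jointly, BCL2A1 and BCL2L11, in place of 1. Counts over all genes moved more. DESeq2 called 273 genes jointly, 122 for ABC and 206 for mantle cell against GCB, 51 for ABC and 29 for marginal zone and hairy cell against mantle cell, and 30 for ABC against marginal zone and hairy cell lines. limma-voom called 56 jointly, 22, 62 and 16 for ABC, mantle cell and marginal zone and hairy cell against GCB, and 0 and 1 for ABC and marginal zone and hairy cell against mantle cell. Upper-quartile factors gave 43 genes for marginal zone and hairy cell against GCB and 2 against mantle cell. The filter at 50 CPM gave 3 for ABC and 6 for marginal zone and hairy cell against mantle cell. The TMM covariate gave 149 for mantle cell against GCB. The cause was not tested. Upper-quartile factors shifted the median log2 difference of all genes by 0.24 (ABC minus GCB), 0.36 (ABC minus mantle cell) and 0.35 (ABC minus marginal zone and hairy cell). Leaving out 1 line gave 103 to 163 genes jointly, 26 to 54 for ABC, 65 to 127 for mantle cell and 36 (without HAIR_M) to 85 for marginal zone and hairy cell against GCB. It gave 2 (without MAVER1) to 22 (without RIVA) for ABC and 6 to 24 (without JVM2) for marginal zone and hairy cell against mantle cell, and 0 to 0 for ABC against marginal zone and hairy cell lines. The members called stayed at 1 to 1 jointly and 3 to 3 in pairs of types. Of 45 pairs of members, 4 passed, against 1 with library size alone, 0 with the TMM factor regressed out, 0 over lines with a type and 0 with type means subtracted, an alternative chosen after seeing the data. They were 6 on the authors' log2 values and 3 to 5 without 1 line. No paired analysis was possible because the labels carry no replicate numbers shared between groups. With 1 library per line, counting intervals are narrow but the spread between cultures of a line is not known, and levels at or below the control targets (BCL2L11 in MINO and SP49, BIK in SUDHL2) cannot be ranked. Groups of 5 lines, 1 of them mixed, limit the comparisons of types, and a p that missed the threshold does not show that types were alike.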

Other observations

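The 3 lines that entered no comparison between types held several extremes of the family. RCK8 had the highest BCL2L1 (1936 CPM) and BAX (1069 CPM) of the 36 lines, the lowest BAK1 (89.0 CPM), and 356 CPM of MCL1, above MEC1 alone. MEC1 had the lowest MCL1 (308 CPM), BCL2L1 (54.6 CPM) and BAX (83.4 CPM), and also the largest TMM factor of the series, 1.87, by which its values are divided. Control targets took 0.0265% of the counts in MEC1, against a median of 0.00021% over the lines, and its highest control target had 424 counts against a median of 10. Each member in MEC1 exceeded that control, and the part of this background in its values was not tested. FARAGE paired 4423 CPM of BCL2A1 with 820.4 CPM of BIK, each the next to highest of the 36 lines.

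The log2 ratio of BCL2 to MCL1, in CPM, ran from -6.68 in SUDHL10 and -4.58 in OCILY7 to 2.79 in OCILY8 and 2.80 in TOLEDO. All 4 of these lines are GCB lines, the largest group, and the mantle cell line UPN1 lay close to OCILY7 at -4.55.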
